A study of Mus musculus with 11 samples.

Results

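Interleukin 6-type cytokine signalling and its SOCS inhibitors were followed in mouse lung through 9 genes chosen by name, Lif, Il6ra, Osmr, Il6st, Stat3, Socs1, Socs2, Socs3 and Cish, out of 14700 genes in the deposited table. The row of each gene was found by its symbol, and all 9 passed the filter on low counts that left 14478 genes for testing. C57BL/6 mice of 8 weeks were given bleomycin at 3 U/kg (5 libraries) or saline alone (6 libraries) into the trachea in 50 µL at day 0, and RNA of the lungs was sequenced at day 3. Bleomycin is a DNA-damaging drug used to injure the mouse lung, the labels name no genetic change in either group, and both groups are unsorted lung tissue, so the cell types that held each transcript were not separated. The labels do not say that each library came from a separate animal, so the p-values measure the spread between these libraries, which may be technical.

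As background, the cytokines of this family signal through the shared receptor chain gp130, the product of Il6st, together with a chain of their own such as the interleukin 6 receptor (Il6ra) or the oncostatin M receptor (Osmr). Janus kinases bound to the receptors then phosphorylate STAT3, which enters the nucleus and turns on genes that include Socs3. SOCS proteins close the loop by blocking the kinases or receptors and, through a motif called the SOCS box, by marking them for degradation. Socs1 is known mainly as an inhibitor of interferon signalling, and Socs2 and Cish as inhibitors that STAT5 induces.

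The reference promoters of 3 of these inhibitor genes are shown because their known inducers bind motifs that can be read from the letters. Each is the RefSeq window of 300 bases on GRCm38.p6, which ends 50 bases after the annotated start, printed 5′ to 3′ on the strand of the gene (Socs1 at chr16:10785487-10785786, minus strand; Socs3 at chr11:117969317-117969616, minus strand; Cish at chr9:107296409-107296708, plus strand). Capitals mark TTCNNNGAA, the motif of activated STAT dimers, in Socs3 and Cish, and the motif of interferon regulatory factors, GAAA followed after any 2 bases by GAAA, in Socs1.
Socs1: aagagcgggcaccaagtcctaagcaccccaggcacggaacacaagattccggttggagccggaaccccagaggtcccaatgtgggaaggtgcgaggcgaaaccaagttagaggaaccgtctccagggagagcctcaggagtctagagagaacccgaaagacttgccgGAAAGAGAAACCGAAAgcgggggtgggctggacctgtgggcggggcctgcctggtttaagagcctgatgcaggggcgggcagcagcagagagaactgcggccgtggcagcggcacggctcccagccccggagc
Socs3: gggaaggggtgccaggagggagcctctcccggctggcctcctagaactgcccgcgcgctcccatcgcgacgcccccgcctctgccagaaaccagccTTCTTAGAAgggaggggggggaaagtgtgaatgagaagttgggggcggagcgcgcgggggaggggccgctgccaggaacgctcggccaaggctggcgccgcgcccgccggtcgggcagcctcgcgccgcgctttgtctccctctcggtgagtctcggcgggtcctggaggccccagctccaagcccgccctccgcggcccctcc
Cish: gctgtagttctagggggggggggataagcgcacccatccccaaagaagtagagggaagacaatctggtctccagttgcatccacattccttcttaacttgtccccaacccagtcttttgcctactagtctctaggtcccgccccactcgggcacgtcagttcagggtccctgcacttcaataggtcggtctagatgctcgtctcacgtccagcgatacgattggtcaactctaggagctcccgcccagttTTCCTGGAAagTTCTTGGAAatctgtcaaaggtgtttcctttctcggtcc
The Socs1 window held the GAAA repeat at positions 168 and 174, counted from 1 at the 5′ end, and these 2 matches share bases. The Socs3 window held TTCNNNGAA at position 97, and the Cish window held it at positions 251 and 262. Searching both strands, 8.30% of 32851 such windows held TTCNNNGAA and 0.457% held it at 2 or more places, while 3.44% held the GAAA repeat and 0.225% held it at 2 or more places. Neither motif was found in the windows of Lif, Il6ra, Osmr, Il6st or Stat3, and Socs2 had no entry. A match describes letters and does not show that a factor bound there.

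Total counts ranged from 13226339 to 19009284 per library. Of the 14478 genes tested, 671 (4.63%) rose and 825 (5.70%) fell after bleomycin by edgeR's quasi-likelihood test at an adjusted p of 0.05, or 10.3% in all, with a median log2 fold change of -0.04. With libraries scaled to their total counts, 894 rose and 380 fell (8.80% in all) and the median of all genes was 0.14. The 5 bleomycin libraries did not overlap the 6 saline libraries in 8.41% of genes (3.99% above and 4.41% below). Saline 2 and 3 stood apart from the other saline libraries, and saline 1 and 4 differed least of all pairs by the chi-square of their counts, so results on the 9 genes are given with and without each pair. Markers of lung epithelium were present in every library, since those of alveolar type 2 cells summed to between 10223 and 39648 CPM (TMM-scaled read counts set to a common library size). The saline pairs differed in other markers. Club cell markers summed to 25889 and 28261 CPM in saline 2 and 3, and to 151258 and 167303 CPM in saline 1 and 4. Fibroblast markers summed to 2959 and 2172 CPM in saline 2 and 3, and to 556 to 782 CPM in the other saline libraries. The part of these differences in the results was not tested.

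Of the 9 genes, Lif and Il6st rose and Socs1 fell after bleomycin. The ligand Lif rose 3.68-fold, the shared receptor chain Il6st rose 1.46-fold, and Socs1 was 7.26-fold lower. The other 6 did not pass the threshold, with log2 fold changes between 0.04 (Il6ra) and 0.68 (Socs3), and the median of the 9 was 0.45. The 3 calls compare with 10.3% of all genes, and the number of the 9 that passed was 1 without saline 1, saline 2 or saline 4, 1 without bleomycin 1 or bleomycin 3, and 0 without bleomycin 2, bleomycin 4 or bleomycin 5, where 4, 3 and 3 had an unadjusted p under 0.05. The 11 fits that left out 1 library called 3.83% to 14.7% of all genes. DESeq2 called 2 higher and 1 lower, against 19.8% of all genes. Without saline 2 and 3, 5 genes rose (Lif, Il6st, Osmr, Stat3 and Socs3) and Socs1 fell, against 19.2% of all genes called. Without saline 1 and 4 only Socs1 passed, against 6.04% of all genes.

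**Figure D1:**
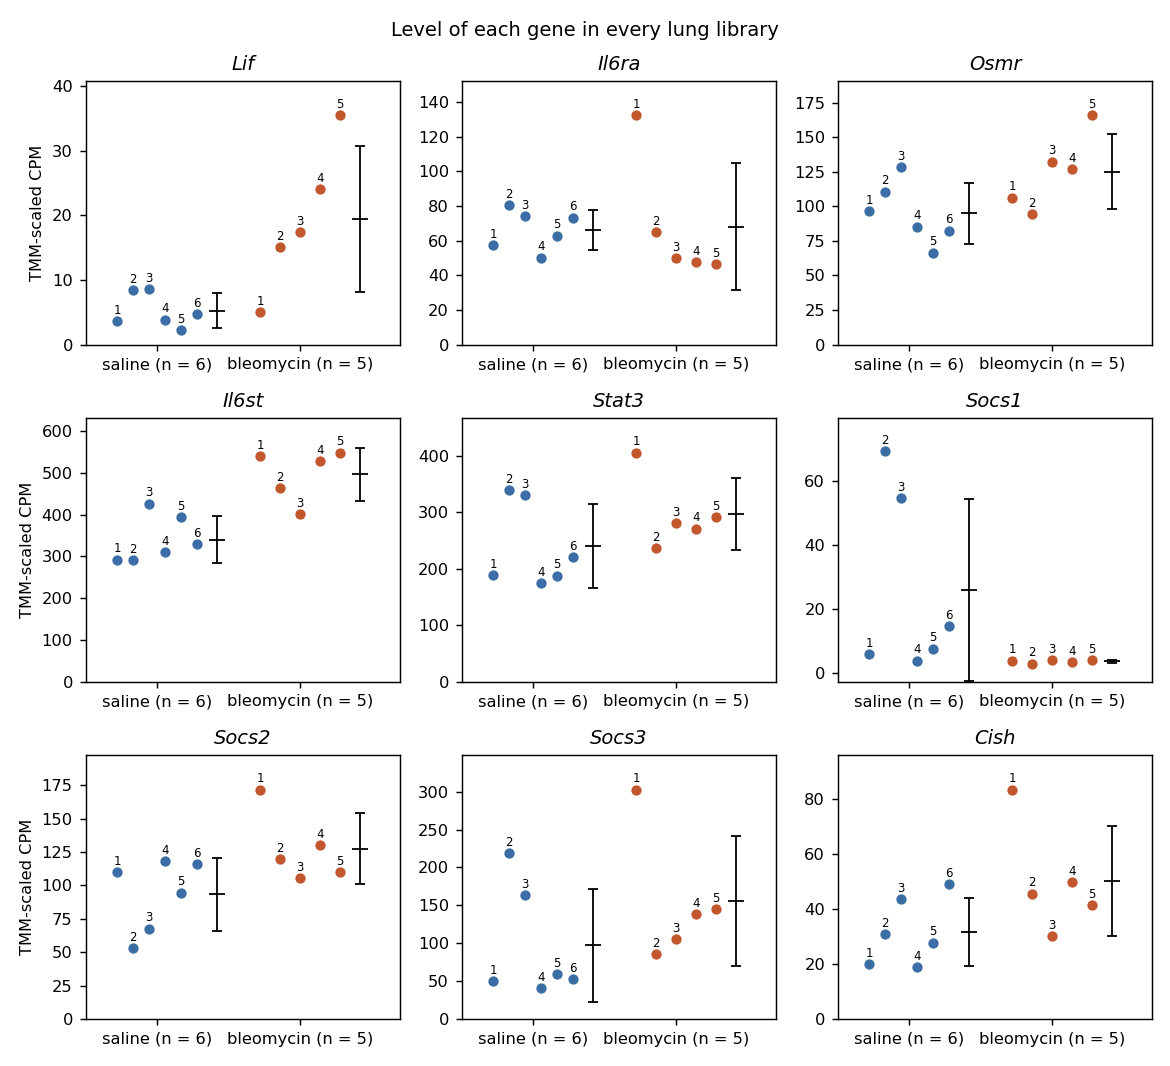
Level of each of the 9 genes in CPM (TMM-scaled counts, vertical axis, linear) in 6 saline and 5 bleomycin libraries; each point is a library, numbered as in the labels, and the bar gives mean ± SD. Socs1 lies between 2.85 and 3.90 CPM in all 5 bleomycin libraries, while Socs3 and Stat3 are high in saline 2, saline 3 and bleomycin 1.

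Lif encodes leukemia inhibitory factor, a cytokine that signals through gp130 and the LIF receptor. Its level in saline lungs had a lowest value of 2.22, a median of 4.32 and a highest value of 8.64 CPM. In bleomycin 1 to 5 it was 4.98, 15.1, 17.4, 23.999 and 35.4 CPM. Bleomycin 2 to 5 lay above every saline library, and bleomycin 1 lay among them, at 66 reads. The means were 5.26 ± 2.68 CPM (SD, n = 6) and 19.4 ± 11.3 CPM (SD, n = 5), a log2 fold change of 1.88 ± 0.462 (SE, adjusted p = 0.0276), and an exact two-sided permutation test of mean log2(CPM + 1) over 462 splits gave an unadjusted p of 0.0108. The call was lost without saline 1 (adjusted p = 0.0566), saline 4 (0.0515), bleomycin 2 (0.0535), bleomycin 3 (0.0511), bleomycin 4 (0.0630) or bleomycin 5 (0.0718), as well as without saline 1 and 4 together (3.27-fold, adjusted p = 0.0898). Without saline 2 and 3 it rose 5.35-fold (adjusted p = 0.0102), and no library of the one group then overlapped the other. The same held for Il6st, Stat3 and Socs3 in that setting, for which the share of all genes without overlap was not computed.

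Among the receptor chains, Il6st was higher after bleomycin by a modest fold, and the chains that give ligand specificity did not pass. Il6st was at 291 to 426 CPM in saline (median 319.6) and at 539, 463, 401, 529 and 548 CPM in bleomycin 1 to 5. Only saline 3 overlapped the bleomycin range, at its lower end. The means were 340.2 ± 56.5 and 496 ± 62.7 CPM, a difference of 0.54 ± 0.158 on the log2 scale (adjusted p = 0.0482). The exact permutation test, two-sided and unadjusted, gave p = 0.00866. The call lay close to the threshold. It was kept without saline 3 or bleomycin 3 and lost without saline 1 (adjusted p = 0.101), saline 2 (0.0800), saline 4 (0.0914), saline 5 (0.0503), saline 6 (0.0562), bleomycin 1 (0.0691), bleomycin 2 (0.0889), bleomycin 4 (0.105) or bleomycin 5 (0.110), and without saline 1 and 4 (0.143). DESeq2 (adjusted p = 0.00356) also made the call, and the fold stayed between 1.42 and 1.55 over the 11 fits that left out 1 library. Some markers of alveolar epithelium were also higher after bleomycin. Of 6 type 1 cell markers 2 rose, Ager (2.83-fold) and Aqp5 (2.21-fold), with sums of 1121 to 3657 CPM in saline and 3334 to 4465 CPM after bleomycin. Of 6 type 2 cell markers 2 rose, Sftpb (2.42-fold) and Abca3 (2.22-fold), with sums of 10223 to 39648 and 19546 to 30461 CPM. Sftpc, the largest part of the type 2 sums, was at 1.08-fold and did not pass. The sums of both lists overlapped between the groups. Of 6 endothelial markers 1 rose, Vwf (2.40-fold). The median log2 fold change was 0.64 for endothelial, 0.56 for type 1 and 0.27 for type 2 markers. No marker of these lists was at 0 in any library, and their part in the result was not tested.

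Osmr, which binds oncostatin M together with gp130, was at 66.5 to 128 CPM in saline (median 91.1) and at 106, 94.4, 132, 127 and 166 CPM in bleomycin 1 to 5. The groups overlapped, with 2 bleomycin libraries above all saline libraries, and Osmr did not pass, at 1.32-fold (log2 0.40 ± 0.191, adjusted p = 0.184). It passed at 1.51-fold once saline 2 and 3 were left out (adjusted p = 0.0446).

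Il6ra, the binding chain for interleukin 6, showed no shift that passed, and its bleomycin libraries were split. Its level was 50.3 to 80.6 CPM in saline (median 68.1) and 132, 64.7, 49.8, 47.6 and 46.4 CPM in bleomycin 1 to 5. Bleomycin 1 was above every saline library, whereas bleomycin 3, 4 and 5 were below every one. The log2 fold change was 0.04 ± 0.270 (adjusted p = 0.940) with all libraries and -0.35 (adjusted p = 0.172) without bleomycin 1. Relative to Il6st in FPKM, a count scaled by gene length and library reads, Il6ra stood at 38.0% to 65.9% in the saline libraries and at 58.3%, 33.2%, 29.5%, 21.4% and 20.1% in bleomycin 1 to 5. Bleomycin 2 to 5 were thus below every saline library in this ratio and bleomycin 1 was among them. The ratio was formed after the levels had been seen and was not tested.

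Stat3 and Socs3, the transcription factor and the inhibitor it induces, had the same 3 libraries at the top, bleomycin 1, saline 2 and saline 3. Stat3 ranged from 174 to 339 CPM in saline (median 205), with 339 and 330.3 CPM in saline 2 and 3, and was at 406, 237, 280.5, 271 and 291 CPM in bleomycin 1 to 5. Its log2 fold change was 0.31 ± 0.222 (adjusted p = 0.369). Socs3 reached 219 CPM in saline 2 and 163 CPM in saline 3, whereas the other 4 saline libraries held 41.0 to 58.7 CPM. In bleomycin 1 to 5 it was at 303, 85.8, 105, 138 and 145 CPM. All 5 bleomycin libraries therefore lay above 4 of the saline libraries, and saline 2 and 3 lay above 4 of the bleomycin libraries. The means were 97.2 ± 74.9 and 155 ± 85.8 CPM (log2 fold change 0.68 ± 0.485, adjusted p = 0.365). Without saline 2 and 3, Socs3 rose 3.08-fold (adjusted p = 0.0117) and Stat3 1.54-fold (adjusted p = 0.0353). Without saline 1 and 4 the folds were 1.28 and 1.12 (adjusted p = 0.688 and 0.705), and without bleomycin 1 the log2 fold change of Socs3 was 0.29 (adjusted p = 0.714) and that of Stat3 was 0.17. The 4 neutrophil markers found summed to 454 CPM in saline 2, 279 CPM in saline 3 and 224 CPM in bleomycin 1. Elsewhere that sum was 39.4 to 209 CPM. Its genes differed, since Il1b reached 285 CPM in saline and 28.1 CPM after bleomycin, and Cxcr2 63.6 and 109 CPM. The part of these markers in the levels of Stat3 and Socs3 was not tested.

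Socs1, which binds and blocks Janus kinases, was the 1 gene of the 9 that fell. In saline 1 to 6 it was at 5.84, 69.3, 54.6, 3.81, 7.58 and 14.6 CPM. In bleomycin 1 to 5 it was at 3.84, 2.85, 3.85, 3.41 and 3.90 CPM, from 47 to 75 reads. Saline 2 and 3 held most of the difference, and saline 4 lay within the narrow bleomycin range. The means were 26.0 ± 28.5 and 3.57 ± 0.450 CPM, a log2 fold change of -2.86 ± 0.744 (adjusted p = 0.0329), and the exact two-sided permutation p was 0.0325, unadjusted. Without saline 2 and 3 the gene was 2.22-fold lower and still passed (adjusted p = 0.0416). With saline 1 and 4 left out instead, the fold was 10.1 (adjusted p = 0.0101). The call was lost without saline 2 (adjusted p = 0.0535), saline 3 (0.0534), bleomycin 1 (0.0552), bleomycin 2 (0.0809), bleomycin 3 (0.0732), bleomycin 4 (0.0749) or bleomycin 5 (0.0728), and with limma on log2(FPKM + 1) in place of edgeR (0.146).

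Markers of several blood cell types were also lower after bleomycin. Of 6 natural killer cell markers, 5 fell, and their summed level was 60.6 to 307 CPM in saline and 7.46 to 21.96 CPM after bleomycin. Of 5 T cell markers tested, 4 fell, from sums of 39.6 to 144 CPM to 15.2 to 30.8 CPM. Of 6 dendritic cell markers 4 fell, from sums of 812 to 3660 CPM to 94.9 to 438 CPM. H2-Aa made up most of these dendritic sums, at 726 to 3591 CPM in saline and 73.6 to 391 CPM after bleomycin. By edgeR, Xcr1 was 11.5-fold, Siglech 4.85-fold and Flt3 3.69-fold lower, whereas Clec9a and Cd209a did not pass (adjusted p = 0.316 and 0.178). The 6 markers of monocytes and recruited macrophages, of which 1 fell, summed to 2366 CPM in saline 2, to 1955 CPM in saline 3 and to between 247 and 678 CPM elsewhere. Among the saline libraries the natural killer sum was lowest in saline 2, where Socs1 was highest. The dendritic and B cell sums were highest in saline 2, and the T cell sum was highest in saline 3. B cell markers summed to 38.5 to 285 CPM in saline and 26.2 to 102 CPM after bleomycin. No marker of these 5 lists was at 0 in any library, and their part in the result was not tested. In bulk lung RNA, fewer cells of a type and less RNA per cell cannot be told apart.

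Socs2 and Cish, both known from other tissues as STAT5-induced genes, did not pass. Socs2 was lowest in saline 2 (53.0 CPM) and saline 3 (67.6 CPM), whereas the other saline libraries held 94.5 to 118 CPM. In bleomycin 1 to 5 it was at 172, 119, 105, 130 and 110.1 CPM. It was thus low where Socs1 and Socs3 were high among the saline libraries, and its log2 fold change was 0.45 ± 0.221 (adjusted p = 0.192), or 0.21 without saline 2 and 3. Cish was at 18.9 to 49.1 CPM in saline (median 29.2) and at 83.3, 45.5, 30.1, 49.8 and 41.3 CPM in bleomycin 1 to 5. Its log2 fold change was 0.66 ± 0.302 (adjusted p = 0.165), with 2 bleomycin libraries above every saline library.

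**Figure D2:**
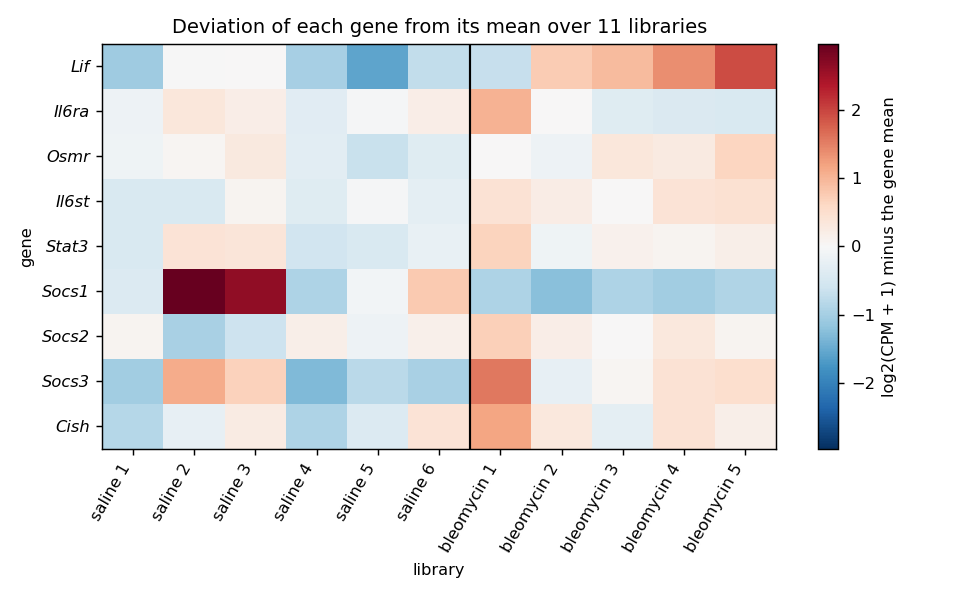
Deviation of log2(CPM + 1) of each gene from its mean over the 11 libraries (colour; rows are genes, columns are libraries, the line separates saline from bleomycin). Saline 2 and 3 are raised by 2.96 and 2.62 for Socs1 and lowered by 0.96 and 0.62 for Socs2, and bleomycin 1 is the highest library for Socs2, Socs3, Cish, Stat3 and Il6ra but not for Lif.

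Bleomycin 1 was the highest of all 11 libraries for Socs2, Socs3, Cish, Stat3 and Il6ra and the lowest bleomycin library for Lif. Its alveolar macrophage markers summed to 1254 CPM, against 305 to 550 CPM in the other bleomycin libraries. Chil3 alone made up 1194 CPM of that sum. Marco, Siglecf, Ear2 and Mrc1 of the same list were each lower in bleomycin 1 than in every other library. The high sum was thus that of Chil3 and not of the list as a whole. The sums of bleomycin 1 for natural killer and dendritic cell markers were the lowest of all libraries, at 7.46 and 94.9 CPM. H2-Aa was 73.6 CPM of that dendritic sum. The part of these markers in the levels of the 5 genes was not tested.

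Socs1 was lower relative to Socs3 after bleomycin, although both were highest within saline in libraries 2 and 3. Socs3 itself did not pass. In FPKM, Socs1 stood at 6.77%, 18.3%, 19.3%, 5.36%, 7.46% and 16.2% of Socs3 in saline 1 to 6. After bleomycin the same ratio was 0.734%, 1.92%, 2.11%, 1.42% and 1.56%. Every bleomycin library was below every saline library, saline 1 and 4 to 6 included. This ratio was chosen after the levels were seen, and it carries no test. Socs1 was called lower on its own, and the share of other gene ratios that separate the groups was not computed.

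**Figure D3:**
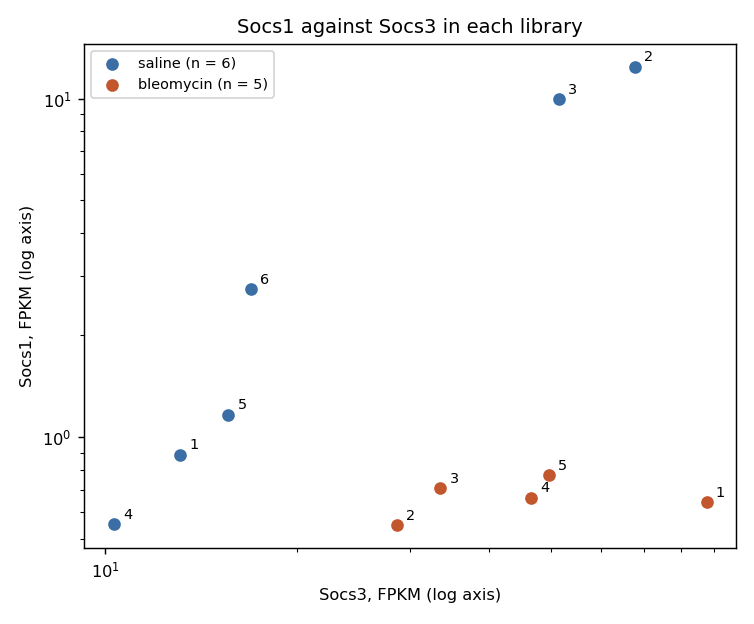
Socs1 against Socs3 in FPKM (both log axes) in each library, numbered as in the labels. The bleomycin libraries lie at 0.550 to 0.773 FPKM of Socs1 and 28.7 to 87.8 FPKM of Socs3, below the saline libraries that have a like level of Socs3.

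The order of genes in FPKM depends on the gene lengths used for the deposited values, which the sources used here do not give. Socs3 had the highest FPKM of the 9 in both groups, at 29.2 ± 24.2 FPKM in saline and 49.2 ± 23.2 FPKM after bleomycin. In CPM, which is not scaled by length, Il6st (means of 340 and 496 CPM) and Stat3 (240 and 297) were above Socs3 (97.2 and 155). The order below is that of the deposited FPKM only. In saline it was followed by Il6st (11.4 ± 2.50), Stat3 (9.85 ± 3.88), Il6ra (5.33 ± 1.44), Osmr (4.79 ± 1.45), Socs1 (4.62 ± 5.20), Socs2 (4.39 ± 1.21), Cish (2.80 ± 1.36) and Lif (0.628 ± 0.365). Each neighbour in that order overlapped the next in range, except Cish and Lif. After bleomycin the order was Socs3, Il6st (18.6 ± 2.71), Stat3 (13.3 ± 2.02), Osmr (7.06 ± 1.83), Socs2 (6.77 ± 1.02), Il6ra (5.92 ± 2.67), Cish (4.75 ± 1.57), Lif (2.58 ± 1.59) and Socs1 (0.667 ± 0.0823). The ranges of Socs3 and Il6st, and of Stat3 and Osmr, did not overlap there, and the other neighbours did. The saline mean of Socs1 rested on saline 2 and 3, at 12.4 and 9.96 FPKM, since the other 4 saline libraries held 0.553 to 2.73 FPKM.

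**Figure D4:**
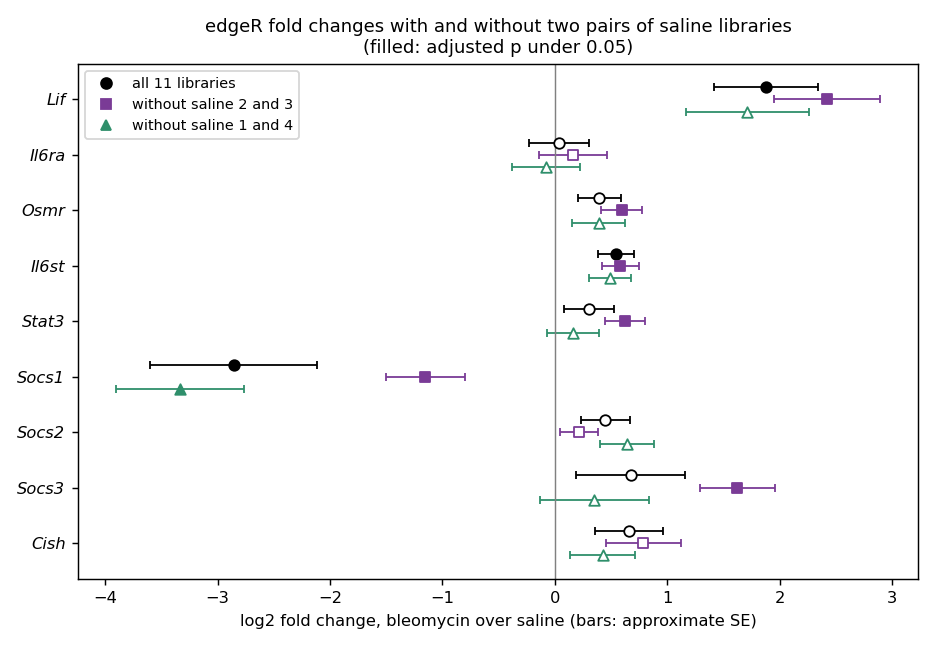
Log2 fold change of each gene, bleomycin over saline, by edgeR with its approximate SE (horizontal bars), for all 11 libraries, without saline 2 and 3, and without saline 1 and 4; filled symbols have an adjusted p under 0.05. Socs3 moves from 0.68 to 1.62 and Socs1 from -2.86 to -1.15 when saline 2 and 3 are left out, while Il6st stays between 0.49 and 0.58.

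The wider pathway was read from 11 lists, whose counts stand beside 4.63% of all genes that rose and 5.70% that fell, or 9.22% and 9.97% without saline 2 and 3. Of 10 IL6-type ligands, 8 were tested and 2 rose, Lif and Il11, with a median log2 fold change of -0.08, or 0.53 without saline 2 and 3. Neither passed without bleomycin 4, bleomycin 5 or saline 1 and 4. Il11, a gp130 cytokine linked to fibrosis, was at 0.304 to 0.757 CPM in saline and at 0.754, 1.33, 1.38, 2.52 and 2.08 CPM in bleomycin 1 to 5. Bleomycin 2 to 5 lay above every saline library, on 5 to 40 reads per library over both groups. It rose 3.01-fold (adjusted p = 0.0238), and the call was lost without bleomycin 4 (adjusted p = 0.0633), bleomycin 5 (0.0617) or saline 1 and 4 together (0.0747). Clcf1, the ligand with the highest mean over all libraries, was at 14.2 ± 7.19 and 11.8 ± 1.94 CPM (adjusted p = 0.622). Il6 itself had 3.16 ± 4.73 and 1.25 ± 0.619 CPM (adjusted p = 0.353). Of 8 IL6-type receptor chains, 7 were tested and 1 rose, Il6st, with a median of 0.04, and Lifr was at 135 ± 44.7 and 129 ± 9.28 CPM (adjusted p = 0.866).

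Between receptor and nucleus, no kinase passed and Stat4 fell. Of 4 Janus kinases, 0 passed by edgeR, 1 had an unadjusted p under 0.05 and DESeq2 called 1 lower. Jak1, the most abundant, was at 177 ± 45.7 and 163 ± 20.3 CPM (adjusted p = 0.694), and 1 kinase passed as lower without saline 6. Jak3, the kinase of receptors with the common gamma chain, was higher without saline 2 and 3 (log2 fold change 1.73, adjusted p = 0.0222) but did not pass with all libraries (0.97, adjusted p = 0.201). Stat4, used by interleukin 12, went from 4.85 ± 1.02 to 2.06 ± 0.398 CPM, 2.34-fold lower (adjusted p = 0.0112). Its bleomycin libraries all lay below every saline library, as did those of 4.41% of all genes. Stat4 was called in all 11 fits that left out 1 library.

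Among the inhibitors, 1 of 8 SOCS family genes fell, Socs1, and 0 rose, with a median of -0.10, beside 5.70% of all genes that fell. In this family 4 had an unadjusted p under 0.05, 1 higher and 3 lower. DESeq2 called 2 of them lower, against 11.2% of all genes. Without bleomycin 1 the family also had 1 lower, although Socs1 itself did not pass there (adjusted p = 0.0552). Of 10 other inhibitors of the pathway 0 passed by edgeR, 3 had an unadjusted p under 0.05 and DESeq2 called 1 higher and 1 lower. Ptpn11, which encodes the phosphatase SHP2, was the most abundant at 141 ± 20.3 and 150.0 ± 23.2 CPM. That count was 1 without saline 6 and 1 without bleomycin 3. Sh2b3, an adaptor that restrains JAK2, rose without saline 2 and 3 (adjusted p = 0.0292), and Ptpn6, the phosphatase SHP1, fell without saline 1 and 4 (adjusted p = 0.0399). Of 5 partners of the SOCS box, 1 fell, Eloc (elongin C), from 78.6 ± 15.7 to 50.9 ± 6.49 CPM (adjusted p = 0.0289), and Rnf7 was at 105 ± 22.8 and 71.4 ± 8.71 CPM (adjusted p = 0.0510). Eloc lost its call without saline 1 (adjusted p = 0.0565), saline 4 (0.0514), bleomycin 2 (0.0553), bleomycin 3 (0.0718), bleomycin 4 (0.0578), bleomycin 5 (0.0727) or saline 1 and 4 (0.0900). Rnf7 passed without saline 3 (0.0380), saline 6 (0.0350) or saline 2 and 3 (0.0210). With Cul2, which passed in 2 fits and was named after its values were seen, the list had 2 lower without saline 3, 3 without saline 6 and 2 without bleomycin 1.

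Of 17 STAT3 target genes tested, 3 rose and 2 fell, with a median log2 fold change of 0.33. That median was -0.05 without bleomycin 1 and 0.71 without saline 2. Bcl2l1, a survival gene, went from 137 ± 23.3 to 254 ± 46.6 CPM (1.86-fold, adjusted p = 0.00784), Cebpd, a transcription factor gene of the acute phase, rose 2.14-fold (adjusted p = 0.0149), and Lrg1, a secreted glycoprotein gene, 3.08-fold (adjusted p = 0.0113). The 3, which were named because they passed, had every bleomycin library above every saline library, as had 3.99% of all genes. They were called in all 11 fits that left out 1 library. Bleomycin 1, the highest library for Socs3, was also the highest for each of them, at 331, 341 and 286 CPM. Steap4, a metalloreductase gene, was 2.41-fold lower (adjusted p = 0.0186, and 0.0535 without bleomycin 2). The fibrinogen gene Fgg, named because the list had only 2 lower genes, was 4.73-fold lower (adjusted p = 0.0459). The number lower was 0 without bleomycin 2, and 1 without saline 1, 2, 4 or 5 or bleomycin 1, 3, 4 or 5. Hp, the haptoglobin gene and the most abundant of the list, was at 2758 ± 1646 and 2068 ± 552 CPM (adjusted p = 0.517). Without saline 2 and 3, 9 of the 17 rose, 2 fell and the median was 0.90, while without saline 1 and 4, 3 rose and 1 fell.

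Of 10 STAT5 target genes, 1 rose (Bcl2l1, shared with the STAT3 list) and 2 fell, the receptor genes Il2ra (4.71-fold) and Tnfrsf13b (2.28-fold), with a median of -0.33, or 0.06 without saline 2 and 3. Both lost their calls without bleomycin 2, 3 or 4 (highest adjusted p 0.0587 and 0.0596), so that no gene of the list was called lower in those fits.

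Of 16 receptor genes that signal through STAT5, 5 fell and 0 rose, with a median log2 fold change of -1.20. Without saline 2 and 3, 4 fell and the median was -0.23, and without saline 2 alone it was -0.76. Il2rb, a chain of the interleukin 2 and 15 receptors, went from 39.8 ± 21.3 to 9.76 ± 1.701 CPM (4.08-fold lower, adjusted p = 0.00935) and was called in all 11 fits that left out 1 library. Beside Il2ra, Il7r was 4.18-fold lower (adjusted p = 0.0327) and Il15ra 2.28-fold lower (adjusted p = 0.0356). The interleukin 21 receptor gene Il21r was 4.63-fold lower (adjusted p = 0.0452), a call that held in 3 of 11 fits with 1 library left out. Il7r and Il15ra each lost the call without saline 2, saline 3 or any 1 bleomycin library (adjusted p up to 0.0800 and 0.0853), and the list had 1 or 2 lower in those fits. Csf2rb, the most abundant, reached 317 CPM in saline 2 and 226 CPM in saline 3, with 20.9 to 97.6 CPM elsewhere (adjusted p = 0.2199). These receptors include genes of T and natural killer cells, whose markers fell as given above, and that part was not tested. Of 8 other receptors known to induce Socs3, 0 passed by edgeR, 2 had an unadjusted p under 0.05 and DESeq2 called 1 lower. There Ifngr1 was the most abundant, at 179 ± 45.1 and 183 ± 69.2 CPM, and 1 receptor passed as lower without saline 4 or saline 6.

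Of 4 genes of receptor shedding, by which soluble interleukin 6 receptor is made, 1 rose. It was Rhbdf1, an inactive rhomboid that helps to carry ADAM17 to the cell surface, which went from 30.6 ± 13.8 to 62.5 ± 2.62 CPM (2.04-fold, adjusted p = 0.0288). In bleomycin 1 to 5 it was at 60.39, 66.4, 60.002, 62.2 and 63.5 CPM, all above saline at 19.1 to 54.9 CPM. Such a gap upward was found in 3.99% of all genes. The call was lost without saline 1 (adjusted p = 0.0520), saline 4 (0.0515), bleomycin 2 (0.0674), bleomycin 3 (0.0529), bleomycin 4 (0.0604), bleomycin 5 (0.0621) or saline 1 and 4 (0.0723). Rhbdf2, its close relative, also rose without saline 2 and 3 (adjusted p = 0.0174, against 0.424 with all libraries), and DESeq2 called 1 gene of the list lower. The proteases themselves did not pass with all libraries. Adam10 was at 146 ± 28.9 and 104 ± 19.0 CPM (adjusted p = 0.0882, and 0.0456 without saline 6), and Adam17 was at 79.5 ± 46.2 and 51.0 ± 6.37 CPM (adjusted p = 0.212).

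**Figure D5:**
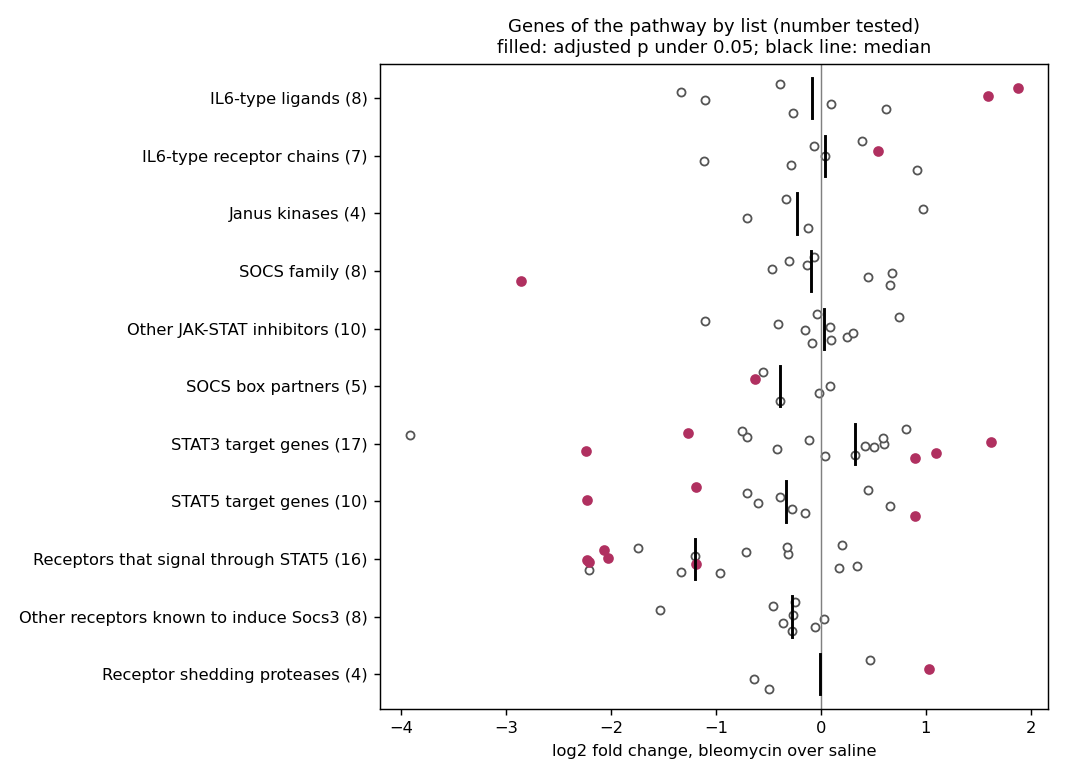
Log2 fold change, bleomycin over saline, of every tested gene of the 11 lists (points; number tested in parentheses), with filled points at an adjusted p under 0.05 and a black line at the median of the list. The medians run from -1.20 for receptors that signal through STAT5 to 0.33 for STAT3 target genes, beside -0.04 for all genes tested. Without saline 2 and 3 these end values are -0.23 and 0.90, and without bleomycin 1 they are -1.10 and -0.05.

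The genes whose levels ran most like those of the 9 were found by Spearman's rho over the 11 libraries, which share the 2 groups and the 2 pairs of saline libraries that stand close. The nearest to Socs3 were Sbno2 and Nfil3 (rho 0.991 each), to Stat3 Xpo6 and Sidt2 (0.991 each), and to Socs1 Tapbp (0.982) and Tmem86a (0.964). Those nearest to Lif were Arhgef11 (0.991) and Rin1 (0.982), to Il6st Krt7 and Ntn1 (0.982 each), and to Osmr Hdlbp (0.936) and Ap1b1 (0.918). Il6ra was closest to Ing5 (0.955) and Muc13 (0.936), Socs2 to Tecrl (0.955) and Acvr2a (0.945), and Cish to Acsbg3 (0.973) and Srsf4 (0.964). Each value is the highest, or the next to it, found over the genes compared, and is given as a description.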

How the data were processed

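RNA of mouse lungs was sequenced in 6 saline and 5 bleomycin libraries, grouped by their titles. Polyadenylated RNA was captured and dUTP was used in library preparation, per the labels' protocols. The authors deposited 1 table that holds, for each gene in each library, raw read counts and FPKM. In it the deposited counts are unnormalized integers, and the deposited FPKM divide them by gene length and library reads. HISAT2 2.2.1, HTSeq 2.0.2, FastQC and the build GRCm39 are named, per the submitters' processing notes. The sources used here do not give their roles, the annotation or the strand setting, so reads of overlapping or antisense genes cannot be told apart.

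Counts were filtered with filterByExpr (count minimum of 10), scaled by TMM and tested two-sided by the quasi-likelihood test of edgeR 4.0.16 in R 4.3.3, with Benjamini-Hochberg adjustment over all genes at 0.05. Each SE was taken as the size of the log2 fold change over the root of the F statistic. The script was checked on simulated counts. Alternatives used DESeq2 1.42.0, limma 3.58.1 on log2(FPKM + 1), other filters and scalings, a replicate block and left-out libraries. Named genes were the 9 members and, per list, up to 4 past the threshold by smallest p and the most abundant one; Il6, Lifr, Fgg, Il21r, Jak3, Sh2b3, Ptpn6, Cul2, Rhbdf2 and Adam17 fall outside this rule and were picked after their values were seen. Likeness left out predicted genes. The members, lists, motifs and left-out pairs were chosen with earlier results of these data known. Promoters are from RefSeq on GRCm38.p6, another build than the authors', and matched 8 of the 9 genes. No library was a copy of another (lowest chi-square 17.5 per degree of freedom). One gene and the lists that rest on it are not reported here.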

Additional observations from a re-analysis of the deposited data

Results flagged for a closer look

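The 9 genes were checked in both groups, 18 sets of values, for a library that lay far from the rest of its group by Dixon's criterion, and chance marks about 1 in 20 sets. Bleomycin 1 was marked for Socs3, at 303 CPM against 145 CPM in the next bleomycin library, and for Il6ra, at 132 CPM against 64.7 CPM. Without bleomycin 1 the log2 fold changes were 0.29 for Socs3 and -0.35 for Il6ra.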

How the results depend on the processing

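The number of the 9 genes past the threshold was 3, and 2 or 3 with no filter, median-ratio or total-count scaling, DESeq2 or limma on log2 FPKM with either pseudocount. It was 1 with the stricter filter, which left 6 of the 9 to test, 0 at a threshold of 0.01, 6 when saline 2 and 3 were left out, 1 when saline 1 and 4 were, and 0 to 2 over the 11 fits that left out 1 library. All genes past the threshold numbered 1496, against 732 with the stricter filter, 247 at 0.01, 2864 by DESeq2, 2778 and 876 with those pairs left out, and 557 to 2118 with 1 library left out. Limma on log2(FPKM + 1) gave 1022 higher and 346 lower genes. A replicate block over libraries 1 to 5 of each group left 0 of the 9 genes (4 at an unadjusted p under 0.05) and 506 genes in all. The numbers did not pair the libraries, since same-numbered libraries had correlations of deviations of -0.24 to 0.03, and 1 of 5 bleomycin libraries was closest to its own number. The cause of these changes was not tested.

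Signs changed for genes that never passed. The log2 fold change of Il6ra was 0.04, and it was -0.053 with the replicate block, -0.077 without saline 1 and 4, -0.070 as a difference of mean log2(CPM + 1), and -0.35 to 0.15 with 1 library left out. The log2 fold change of Ifngr1 was -0.0589 with the replicate block, -0.0935 without saline 1 and 4, and -0.20 to 0.18 with 1 library left out. Clcf1 had 0.051 with a pseudocount of 0.1 and 0.20 without saline 2 and 3. Jak1 had 0.047 with total-count scaling, 0.078 with limma at a pseudocount of 1 with or without the filter, 0.085 at 0.1, and 0.071 without saline 2 and 3. Without saline 1 and 4 Hp had 0.26, and without saline 2 and 3 Csf2rb had 0.28. The lowest counts of the 9 genes were 29 reads for Lif, in saline, and 47 reads for Socs1, after bleomycin.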
